A study of Bos taurus with 138 samples.

Results

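The comparison described here set the mRNA recovered with polysomes of metaphase II (MII) bovine oocytes against the mRNA of whole MII oocytes. Its members were chosen by their column names: the fractions F8, F9 and F10 of MII gradients A and B, each gradient summed to 1 polysome pool, and the MII transcriptomes A, B and C. They are 9 of the 138 libraries of the series. Cumulus-oocyte complexes came from ovaries of slaughtered cattle, and the MII oocytes were obtained from them by in vitro maturation, followed by removal of the cumulus cells. Per the study's methods, oocytes for the gradients were treated with cycloheximide, which holds ribosomes on the mRNA, and with protease to remove the zona pellucida, pooled, disrupted with beads and cleared by centrifugation. The lysates were separated on sucrose gradients into 10 fractions, with free RNA in F1 and F2, single ribosomes (monosomes) in F3 to F5 and polysomes in F8 to F10. The transcriptomes were made from pools of whole oocytes of the same batches. The labels give no genetic change and no experimental treatment for any group. The ages and breeds of the ovary donors are not among the labels.

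A fully grown oocyte does not transcribe, so that meiotic maturation and the first cleavages rely on mRNA stored during growth. During maturation some stored mRNAs gain a long poly(A) tail and are loaded with ribosomes, while others lose their tail and are later degraded. The MII oocyte is held at metaphase by active cyclin B and CDK1 and by the MOS kinase pathway, until fertilization activates the anaphase promoting complex. An mRNA that sediments with polysomes carries several ribosomes, and its share in the heavy fractions is read as a sign of active translation.

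The 6 polysome fraction libraries held between 8840839 and 11664583 expected counts, which gave pools of 32100049 counts (gradient A) and 31375124 counts (gradient B). The 3 transcriptomes held 10499936, 11228513 and 11414406 counts. F10 of gradient B stood apart, with 7396 genes above 0 where F10 of gradient A had 11341. Its log2(CPM + 1) values correlated with those of the other 5 polysome fractions at a Pearson's r of 0.674 to 0.699, and the other 5 correlated among themselves at 0.893 to 0.928. CPM are counts relative to the library total, scaled here with TMM factors, and they are not corrected for transcript length, so levels are compared between libraries and not between genes. Across genes, which are not independent replicates, r was 0.94 between the pools, at least 0.986 between transcriptomes, and 0.588 to 0.653 between a pool and a transcriptome. The pools differed by more than 4-fold in 618 genes (4.23%), and any 2 transcriptomes did so in 24 genes (0.164%). The study describes the gradients as a repeated experiment with biological replicates, and the labels do not say that samples of a group came from separate cultures. In the comparison with the transcriptomes, the p-values use a spread estimated over 30 libraries of 6 stages, pools and transcriptomes together. They do not measure the spread of the MII samples alone, and the spread between samples may be technical.

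Polysome pools and transcriptomes of MII oocytes differed in most genes measured. Of 14612 genes tested with the quasi-likelihood test of edgeR, 4500 (30.8%) were higher in the pools and 3908 (26.7%) were lower at an adjusted p below 0.05. With a fold change above 8 as well, 3085 (21.1%) were higher and 1888 (12.9%) were lower. Both pools lay above all 3 transcriptomes in 5458 genes (37.4%) and below all 3 in 5447 genes (37.3%). Over all genes tested the median was 6.34 CPM in the transcriptomes and 10 CPM in the pools. Genes called higher had medians of 2.63 CPM in the transcriptomes and 38.9 CPM in the pools, values that the call itself selects. They held 8.39% of the transcriptome counts and 68.6% of the polysome counts. Genes called lower had a median of 67.3 CPM in the transcriptomes and 9.63 CPM in the pools, and their share of the counts was 73.9% and 13.5%. The 462 genes at 0 in all 5 columns had a fitted difference of 0, and the other 14150 had a median log2 fold change of 0.08. With DESeq2's size factors in place of TMM this median was -0.12, and list medians below are given on the TMM scale.

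**Figure D1:**
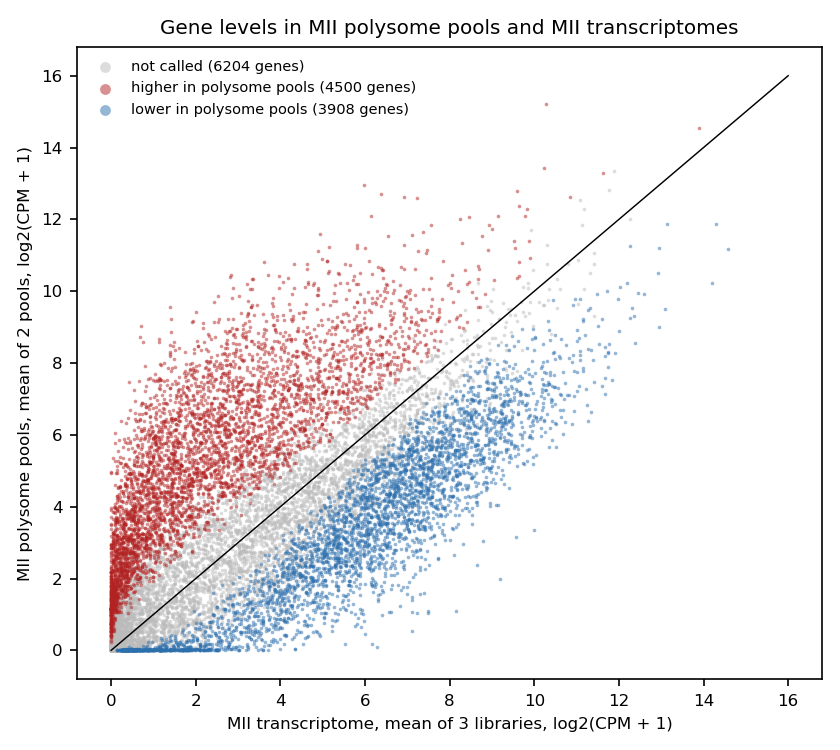
Mean level of each of the 14612 genes in the 3 MII transcriptomes (x axis) and the 2 MII polysome pools (y axis), both as log2(CPM + 1), with genes called higher in red, called lower in blue and not called in grey. The 4500 red genes lie mostly at the left of the plot and the 3908 blue genes mostly at its right, on either side of the line of equal level.

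Many of the genes called in the polysome pools also lay beyond the transcriptomes in the other fractions. All 20 MII fraction libraries, F1 to F10 of both gradients, lay above all 3 transcriptomes in 1731 genes (11.8%) and below all 3 in 2959 genes (20.3%). Among the 4500 genes called higher, 3447 (76.6%) had all 4 free RNA libraries of F1 and F2 above the transcriptomes, and 3766 (83.7%) had all 6 monosome libraries above them. All 6 polysome libraries, F10 of gradient B included, were above them in 2025 (45%). Among the 3908 genes called lower, the corresponding numbers below the transcriptomes were 3178 (81.3%), 3167 (81%) and 3581 (91.6%). The median log2 ratio of fraction to transcriptome over the genes called higher was 2.68 in F1 and F2, 2.53 in F3 to F5 and 2.53 in F8 to F10. Over the genes called lower it was -2.52, -2.22 and -2.52. All these genes were called against the same 3 transcriptomes, so the call itself favours such shares and ratios. Shares over all genes tested were taken for the 20 fractions together only. Fractions and whole oocytes differed in lysis, clearing and RNA isolation as well as in ribosome load, and in this comparison these cannot be told apart.

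The proteins of the egg coat and those that oocytes secrete fell on both sides. ZP3, the sperm-binding glycoprotein of the zona pellucida, measured 25300 and 50200 CPM in the pools of gradients A and B, and 1780, 1160 and 784 CPM in the transcriptomes. Both pools were far above every transcriptome, with a log2 fold change of 4.92 (SE 0.44, adjusted p = 1.53e-09). ASTL, the ovastacin protease that hardens the zona after fertilization, measured 7710 and 5600 CPM against 89.3, 90.9 and 64.4 CPM (log2 fold change 6.35, SE 0.71, adjusted p = 4.79e-08). ZP2, another zona glycoprotein, went the other way, with 1220 and 1690 CPM in the pools and 8130, 7150 and 8130 CPM in the transcriptomes. Its log2 fold change of -2.43 (SE 0.73, adjusted p = 0.00652) passed the test with both pools but not without gradient A (-2.26, adjusted p = 0.0627). OOSP2, an oocyte-secreted protein, measured 349 and 397 CPM against 5990, 4230 and 5900 CPM, a log2 fold change of -3.85 (SE 1.28, adjusted p = 0.0128). Its call was lost without gradient A (adjusted p = 0.0836) and without gradient B (adjusted p = 0.0719). Neither growth factor of the oocyte passed the test: GDF9 measured 784 and 1340 CPM against 2590, 2380 and 1980 CPM (adjusted p = 0.327), and BMP15 2260 and 2010 CPM against 2140, 2940 and 3020 CPM (adjusted p = 0.741). ZP4 measured 11700 and 9290 CPM against 4800, 3400 and 3200 CPM, and did not pass either although both pools were above all 3 transcriptomes (adjusted p = 0.0987). The list of zona and oocyte-secreted proteins thus had 2 members higher (28.6%), 2 lower (28.6%) and 3 not called of 7 tested. These shares were near the 30.8% and 26.7% of all genes tested.

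Among the kinases, phosphatases and cyclins of meiotic maturation, MOS, PLK1, PKMYT1 and CDC25B were higher in the pools and more members were lower. MOS, the kinase that starts the MAP kinase cascade of metaphase arrest, measured 4710 and 5330 CPM in the pools and 994, 807 and 909 CPM in the transcriptomes. The groups did not overlap, and the log2 fold change was 2.47 (SE 0.6, adjusted p = 0.00119). PLK1, a mitotic and meiotic kinase, measured 2990 and 1430 CPM against 31.5, 33.5 and 21.2 CPM (log2 fold change 6.26, SE 0.49, adjusted p = 1.57e-10). PKMYT1, which phosphorylates and inhibits CDK1, was scarce in whole oocytes, at 1.95, 1.52 and 0.119 CPM, and measured 186 and 192 CPM in the pools. Its log2 fold change of 7.29 (SE 0.67, adjusted p = 2.31e-09) was the highest of the 20 members. CDC25B, the phosphatase that opposes PKMYT1 and WEE2, measured 621 and 335 CPM against 23.5, 20.9 and 15.7 CPM (log2 fold change 4.58, SE 0.34, adjusted p = 7.59e-11).

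The cyclin and the kinase of maturation promoting factor were both lower in the pools. CCNB1, cyclin B1, measured 547 and 614 CPM in the pools and 2000, 2140 and 2660 CPM in the transcriptomes. All 20 MII fractions, from 115 to 850 CPM, were below the lowest transcriptome, and the log2 fold change was -1.97 (SE 0.28, adjusted p = 2.05e-06). CDK1 measured 17 and 25 CPM against 182, 223 and 265 CPM (log2 fold change -3.41, SE 0.4, adjusted p = 1.11e-07). WEE2, the oocyte kinase that keeps CDK1 inactive before maturation, measured 143 and 138 CPM against 761, 973 and 897 CPM (-2.64, SE 0.56, adjusted p = 0.000375). ARPP19, an inhibitor of the phosphatase that opposes CDK1, was the member furthest down, at 12.4 and 13.1 CPM against 387, 338 and 388 CPM (-4.86, SE 0.41, adjusted p = 6.01e-10). BORA, the activator of the Aurora A kinase, was lower too, with 137 and 92.9 CPM against 1080, 1300 and 1910 CPM (-3.64, SE 0.4, adjusted p = 3.95e-08). CDC25C, CCNB3, WEE1, AURKA and MASTL were also lower, and CCNB2, MAP2K1 and CDC25A were among those that did not pass. Of 20 members, 4 were higher (20%, beside 30.8% of all genes tested), 10 were lower (50%, beside 26.7%) and 6 were not called.

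**Figure D2:**
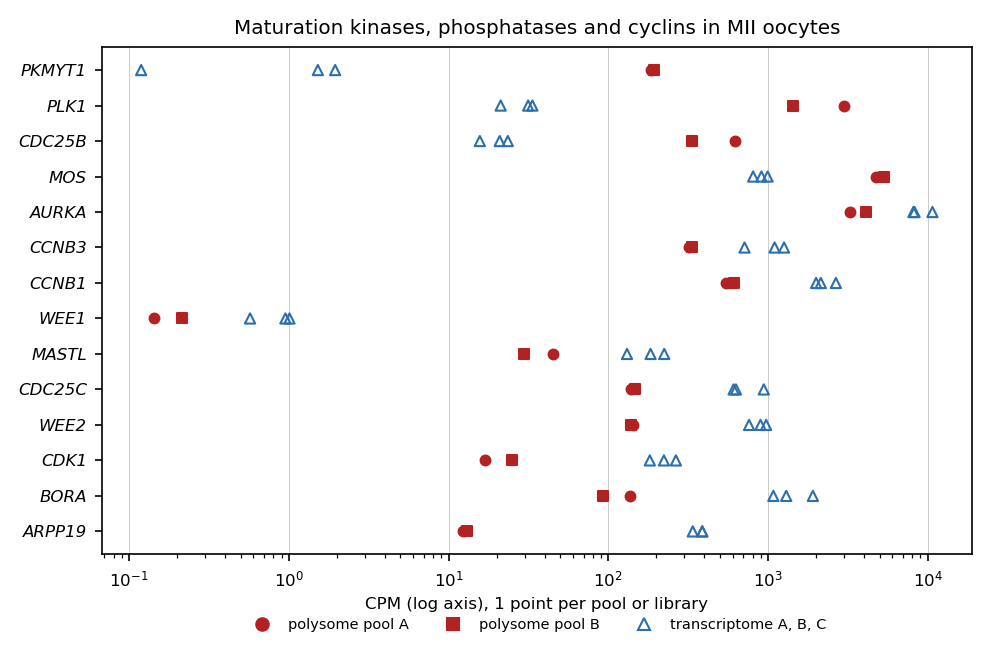
Level in CPM (log axis) of the 14 maturation kinases, phosphatases and cyclins that passed the test, in each of the 2 polysome pools (red) and 3 transcriptomes (open blue triangles) of MII oocytes, ordered by log2 fold change. PKMYT1, PLK1, CDC25B and MOS have both pools to the right of all transcriptomes, and CDK1, BORA and ARPP19 have both to the left.

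The anaphase promoting complex, the ubiquitin ligase that ends metaphase, and the spindle checkpoint were mostly lower. Of 28 members tested, 18 were lower (64.3%, beside 26.7% of all genes tested), 5 were higher (17.9%, beside 30.8%) and 5 were not called. The median log2 fold change was -1.57. The 5 higher members were CDC20, UBE2S, ANAPC2, ANAPC11 and FZR1. UBE2C, a ubiquitin-conjugating enzyme of the same list, was not called (log2 fold change -0.6). CDC20, the activator used at metaphase, measured 1600 and 1180 CPM in the pools and 234, 257 and 306 CPM in the transcriptomes (log2 fold change 2.39, SE 0.28, adjusted p = 1.13e-07). UBE2S, the enzyme that lengthens ubiquitin chains for the complex, measured 1160 and 1000 CPM against 90.4, 86 and 87.9 CPM (3.62, SE 0.3, adjusted p = 3.38e-10). ANAPC2, the cullin subunit of the catalytic core, measured 128 and 133 CPM against 2.52, 2.64 and 0.595 CPM (6.08, SE 0.59, adjusted p = 5.16e-09). ANAPC11, its RING partner, measured 1630 and 1710 CPM against 426, 356 and 449 CPM, and FZR1, the second activator, 13.2 and 13.8 CPM against 1.83, 2.13 and 0.714 CPM. The lower members included scaffold subunits, checkpoint proteins and inhibitors of the complex. CDC27 measured 83.2 and 91 CPM against 876, 979 and 1320 CPM (-3.6, SE 0.61, adjusted p = 2.15e-05). MAD2L1, a checkpoint protein that binds CDC20, measured 48.7 and 41.8 CPM against 526, 444 and 808 CPM (-3.71, SE 0.33, adjusted p = 1.31e-09). FBXO5 and FBXO43, both inhibitors of the complex, and the shugoshins SGO1 and SGO2, which protect centromeric cohesion, were lower as well. PTTG1, securin, measured 4230 and 3180 CPM against 22600, 15700 and 21800 CPM (-2.43, SE 0.52, adjusted p = 0.000329).

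Maternal effect genes, whose products the embryo needs from the egg, were higher more often than lower. Of 14 members tested, 7 were higher (50%, beside 30.8% of all genes tested), 2 were lower (14.3%, beside 26.7%) and 5 were not called. The median log2 fold change was 1.34. The higher ones included members of the subcortical maternal complex, a protein lattice under the egg surface. NLRP5 measured 3690 and 2530 CPM in the pools and 38.4, 32.9 and 17 CPM in the transcriptomes (log2 fold change 6.72, SE 1.02, adjusted p = 4.97e-06). PADI6 measured 8800 and 7060 CPM against 80.4, 71 and 35.6 CPM (6.99, SE 0.55, adjusted p = 1.78e-10), and TLE6 2290 and 2370 CPM against 69.3, 57.6 and 37.8 CPM (5.41, SE 0.43, adjusted p = 2.48e-10). In each of these genes the pools were many times above the highest transcriptome. OOEP, KHDC3L, TRIM28 and the oocyte linker histone H1FOO were higher too. DPPA3, which protects maternal DNA methylation in the zygote, measured 509 and 519 CPM against 7650, 6760 and 9290 CPM (-3.94, SE 0.42, adjusted p = 2.63e-08). DNMT1, the maintenance DNA methyltransferase, measured 131 and 148 CPM against 588, 600 and 772 CPM (-2.22, SE 0.35, adjusted p = 9.38e-06). NPM2, UHRF1, NLRP9, KDM1B and ZFP57 did not pass.

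The machinery that shortens poly(A) tails and degrades mRNA was lower in 15 of 21 members (71.4%, beside 26.7% of all genes tested). It was higher in 4 (19%, beside 30.8%), with a median log2 fold change of -1.99. BTG4, the adaptor that brings the CCR4-NOT deadenylase to maternal mRNA, measured 1830 and 2800 CPM in the pools and 23300, 19900 and 29900 CPM in the transcriptomes. The log2 fold change of -3.4 (SE 1.04, adjusted p = 0.00762) passed the test with both pools, but not without gradient A (-3.18, adjusted p = 0.0715). CNOT6, a catalytic subunit of that deadenylase, measured 0.252 and 0.608 CPM against 31.8, 26.3 and 26.4 CPM (-6.01, SE 0.79, adjusted p = 6.15e-07). TUT7, which adds uridines to shortened tails, measured 6.05 and 4.51 CPM against 227, 245 and 354 CPM (-5.7, SE 0.69, adjusted p = 1.97e-07). The decay activators ZFP36L1 and ZFP36L2 were among the 4 that were higher. ZFP36L2, whose loss is known to arrest early embryos, measured 38.4 and 26.3 CPM against 1.6, 1.82 and 1.55 CPM (4.28, SE 0.4, adjusted p = 3.01e-09).

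Factors of cytoplasmic polyadenylation and mRNA storage were lower in 14 of 34 members (41.2%, beside 26.7% of all genes tested). They were higher in 7 (20.6%, beside 30.8%) and not called in 13. Among those higher was YBX2, the germ cell protein that packages stored mRNA, at 54 and 46.2 CPM against 4.58, 2.74 and 1.55 CPM (log2 fold change 4.08, SE 0.82, adjusted p = 0.000169). ZAR1, an oocyte RNA-binding protein, measured 865 and 760 CPM against 107, 101 and 82 CPM (3.07, SE 0.68, adjusted p = 0.000497). SYMPK, the scaffold of the polyadenylation complex, measured 52.6 and 64.3 CPM against 0.916, 1.82 and 0.833 CPM. Among those lower was EIF4E, the cap-binding protein, at 174 and 138 CPM against 2250, 2200 and 2680 CPM (-3.93, SE 0.29, adjusted p = 5.87e-11). PAPOLG, a poly(A) polymerase, measured 371 and 249 CPM against 2670, 3330 and 5430 CPM (-3.62, SE 0.33, adjusted p = 1.69e-09). CPEB1, which binds the cytoplasmic polyadenylation element, was not analysed here.

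Nuclear genes of mitochondrial respiration, mitochondrial ribosomal proteins and lysosomal genes had more members higher than lower in the pools. Of all genes tested, 30.8% were higher and 26.7% were lower. Of the 76 nuclear genes of oxidative phosphorylation, 45 were higher (59.2%) and 22 were lower (28.9%), with a median log2 fold change of 1.47. Examples were NDUFV1, a complex I subunit, at 635 and 634 CPM against 11.9, 7.7 and 4.88 CPM, and SDHA, a complex II subunit, at 942 and 489 CPM against 21.2, 17.9 and 14.2 CPM. ATP5PB of ATP synthase was lower, at 49.1 and 40.9 CPM against 634, 536 and 772 CPM. Of the 77 mitochondrial ribosomal proteins, 41 were higher (53.2%) and 20 were lower (26%), with a median of 1.33. MRPL37 measured 5810 and 6780 CPM against 106, 144 and 112 CPM (5.7, SE 0.25, adjusted p = 8.83e-14), and MRPL39 measured 11.5 and 54.1 CPM against 493, 382 and 489 CPM (-3.79, SE 0.47, adjusted p = 3.13e-07). Members of 1 ribosome therefore lay far apart on either side. Of the 70 lysosomal genes, 35 were higher (50%) and 12 were lower (17.1%), and the median of 1.82 was the highest of the 20 lists. GAA, which degrades lysosomal glycogen, measured 38 and 40.8 CPM against 0.343, 0.203 and 0.476 CPM (6.84, SE 1.52, adjusted p = 0.000507), while ATP6V1D of the proton pump measured 1.59 and 0.894 CPM against 14.5, 15.7 and 15.3 CPM. The 41 mitochondrial carriers had 13 higher (31.7%) and 9 lower (22%), near the 30.8% and 26.7% of all genes tested, with a median of -0.25. Their largest increase was that of SLC25A39, a carrier for glutathione, at 423 and 250 CPM against 4.01, 4.06 and 3.21 CPM.

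The 80 cytosolic ribosomal proteins were shifted less, with 31 higher (38.8%, beside 30.8% of all genes tested) and 17 lower (21.2%, beside 26.7%). Their median log2 fold change was 0.52. RPL13 measured 421 and 1230 CPM in the pools and 55.5, 60.4 and 49 CPM in the transcriptomes (3.91, SE 0.34, adjusted p = 8.68e-10). RPL5, which carries 5S rRNA into the large subunit, measured 46.8 and 61.7 CPM against 722, 563 and 682 CPM (-3.59, SE 0.36, adjusted p = 9.58e-09). These genes have many processed pseudogenes, among which the authors' quantification may have divided reads, so single members are uncertain. Translation factors were lower in 27 of 48 members (56.2%) and higher in 10 (20.8%), with a median of -1.43. EIF4A2, an initiation helicase, measured 42.3 and 41.9 CPM against 952, 911 and 1290 CPM (-4.64, SE 0.3, adjusted p = 8.68e-12). EEF2, the elongation factor that moves the ribosome, measured 115 and 82.9 CPM against 11.4, 11.4 and 6.42 CPM (3.34, SE 0.31, adjusted p = 3.32e-09).

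Nuclear and secretory machinery was lower more often than higher. Of 82 spliceosome genes, 44 were lower (53.7%) and 12 were higher (14.6%), with a median of -1.28. TRA2B, a splicing regulator, measured 0.288 and 0.358 CPM against 26.6, 29.7 and 32.5 CPM (-6.49, SE 0.67, adjusted p = 1.68e-08), and SF3A2, a U2 snRNP subunit, measured 355 and 296 CPM against 3.78, 4.66 and 1.67 CPM (6.59, SE 0.66, adjusted p = 8.61e-09). Of 40 genes of endoplasmic reticulum translocation and folding, 23 were lower (57.5%) and 8 were higher (20%), with a median of -1.07. SEC63 of the translocon measured 6.92 and 9.12 CPM against 215, 186 and 172 CPM, while P4HB, a protein disulfide isomerase, measured 714 and 598 CPM against 48.8, 48.4 and 35.1 CPM. Among 46 genes of the nuclear pore and RNA export, 22 were lower (47.8%) and 15 higher (32.6%), with a median of -0.38, beside 26.7% lower and 30.8% higher of all genes tested. Among 35 kinesins 13 were lower (37.1%) and 8 higher (22.9%; median -0.71), with KIF18A and KIF20B among the lower. The proteasome had 13 of 37 members higher (35.1%) and 15 lower (40.5%), with a median of 0.06 that became -0.14 with DESeq2's size factors. The 262 ZNF genes, a large family of zinc finger proteins of which few have a known role, had 73 higher (27.9%) and 71 lower (27.1%), close to the shares of all genes tested. All these lists were chosen with earlier results of these data known, and no test was made of a list as a whole.

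**Figure D3:**
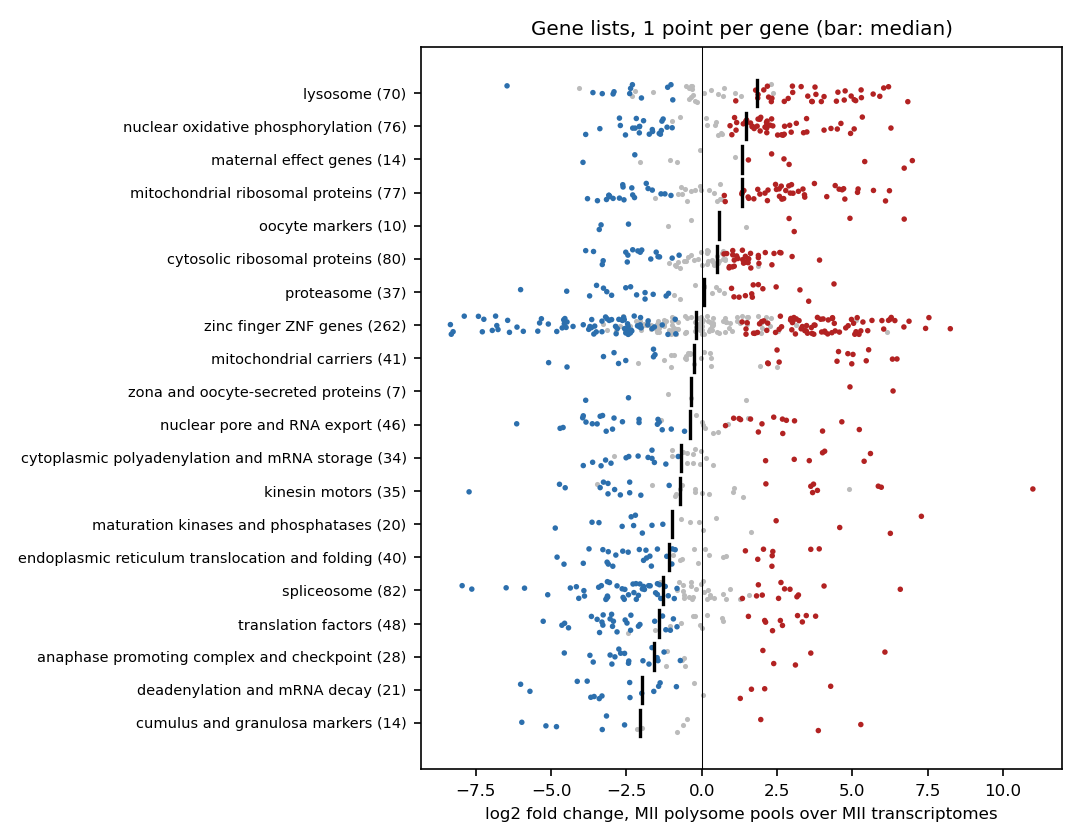
Log2 fold change of MII polysome pools over MII transcriptomes for every tested member of the 20 gene lists (number tested in parentheses), with called members in red or blue, others in grey and the list median as a black bar. The bars run from 1.82 for lysosomal genes to -2.06 for cumulus and granulosa markers, and most lists have called members on both sides of 0.

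The named genes ranked here passed the test, averaged at least 10 CPM over the MII pools and transcriptomes, and had both pools beyond every transcriptome. The largest increases among them belonged to genes that whole MII oocytes barely held. TBX6, a transcription factor of mesoderm, was at 0 in all 3 transcriptomes and at 38.8 and 21.7 CPM in the pools, at least 90.4-fold higher by a floor of 3 counts per library. CLDN5, a tight junction protein, was likewise at 0 in whole oocytes and at 7.46 and 52.3 CPM in the pools, at least 89.3-fold higher by the mean of both pools and at least 22.3-fold higher with gradient A alone. RHOT2, a GTPase of the outer mitochondrial membrane that moves mitochondria, measured 392 and 376 CPM against 0.343, 0.304 and 1.43 CPM (log2 fold change 9.13, SE 0.67, adjusted p = 5.66e-11). MEAK7, an activator of mTOR signalling, measured 490 and 349 CPM against 0.343, 0.912 and 0.595 CPM (9.38, SE 0.83, adjusted p = 1.32e-09). Both of these genes were above the transcriptomes in all 20 fractions. MTG2, a GTPase of mitochondrial ribosome assembly, measured 45.5 and 62 CPM against 0, 0.101 and 0.119 CPM, and GPAT2, a mitochondrial acyltransferase of the germ line, 222 and 130 CPM against 0.801, 0.101 and 0.119 CPM. PRAG1, a pseudokinase, measured 1050 and 473 CPM against 2.06, 2.13 and 0.595 CPM. ABCC10, a transporter, measured 18.7 and 112 CPM and KDM8, a hydroxylase, 11 and 68.4 CPM, both with at least 1 transcriptome at 0. Their medians over the single F8 to F10 libraries were 23.6 and 11.9 CPM, and their highest MII fractions held 322 and 206 CPM. The value of CASZ1, a zinc finger protein, rested on gradient B: its pools measured 3.39 and 1030 CPM, and the log2 fold change of 9.67 was 2.39 without gradient B (adjusted p = 0.279).

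The largest decreases were found in genes whose levels in every fraction were below those of whole oocytes. MIER1, a transcriptional corepressor, measured 0.036 and 0.107 CPM in the pools and 66.3, 80 and 83.1 CPM in the transcriptomes (log2 fold change -9.93, SE 1.07, adjusted p = 3.2e-08). Its highest value in any of the 20 fractions was 1.51 CPM. GAR1, a protein of the snoRNPs that modify rRNA, measured 0.252 and 0.0358 CPM against 75.6, 63.4 and 74.6 CPM (-8.88, SE 1.13, adjusted p = 4.19e-07). NOC3L, a factor of ribosome assembly, measured 0.108 and 0.822 CPM against 120, 118 and 172 CPM, and CWC22 of the spliceosome 1.19 and 1.07 CPM against 194, 250 and 401 CPM. BCCIP, which binds BRCA2, measured 1.44 and 0.644 CPM against 187, 170 and 179 CPM (-7.41, SE 0.64, adjusted p = 8.62e-10), and reached 35.1 CPM in another fraction. SNRPD1, a core protein of snRNPs, measured 3.31 and 2.61 CPM against 695, 521 and 550 CPM, with up to 169 CPM in another fraction, and it has retrocopies among which reads may have been divided. UBR3, IFIT5, SLC35B3 and TERF1 completed the 10 genes, with log2 fold changes of -9.6, -9.6, -8.4 and -7.39. UBR3 came closest to whole oocytes, with up to 10.1 CPM in a fraction and 13.8 CPM in the lowest transcriptome on the scale of the fractions. In all 10 genes every one of the 20 fractions lay below every transcriptome.

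The genes with the highest CPM in the pools were ZP3, UBB, TUBA1C, ZP4 and FTL. TUBA1C, an alpha tubulin, measured 13000 and 9020 CPM against 1110, 1050 and 1470 CPM (log2 fold change 3.18, SE 0.24, adjusted p = 7e-11), and FTL, the light chain of ferritin, 7920 and 12100 CPM against 3430, 2600 and 3410 CPM (1.67, SE 0.33, adjusted p = 0.000171). Tubulin and ferritin genes have close copies, which makes both values uncertain. UBB, a polyubiquitin gene, measured 23700 and 24300 CPM against 16500, 13600 and 15600 CPM, with a log2 fold change of 0.65 (SE 0.24, adjusted p = 0.0231). That call was lost without gradient A (adjusted p = 0.0889), gradient B (0.0978), transcriptome B (0.0991) or transcriptome C (0.0574), with F10 of gradient B left out (0.0538), and with DESeq2 on all libraries (0.45, adjusted p = 0.0955).

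Markers of the cumulus and granulosa cells that surround the oocyte were measured in both groups. Their summed level was 761 and 1520 CPM in the pools and 827, 1220 and 1170 CPM in the transcriptomes, and 418 to 2470 CPM over the 20 fractions. Of 14 tested, 3 were higher (21.4%) and 6 were lower (42.9%), beside 30.8% and 26.7% of all genes tested. FSHR, the receptor that defines granulosa cells, was at 0 in both pools and at 0.114, 0.101 and 0.357 CPM in the transcriptomes, a call lost without gradient A (adjusted p = 0.141), gradient B (0.139) or transcriptome C (0.109). FOXL2 was at 0 in all 3 transcriptomes and at 0.0721 and 0 CPM in the pools. HAS2, which makes the matrix of the expanded cumulus, measured 19.8 and 16.6 CPM against 169, 183 and 187 CPM (log2 fold change -3.3, adjusted p = 0.0121), and PTX3 and VCAN of the same matrix were lower too, PTX3 not without gradient A (-5.06, adjusted p = 0.125). STAR, which brings cholesterol into mitochondria for steroid synthesis, measured 544 and 848 CPM against 183, 199 and 154 CPM (1.96, SE 0.3, adjusted p = 6.16e-06). AMH and INHA were called higher, but INHA measured 30.3 and 265 CPM in the pools and fell to a log2 fold change of 1.56 without gradient B (adjusted p = 0.41). It also lost its call without transcriptome A (adjusted p = 0.0574) or C (0.063) and with F10 of gradient B left out (0.0818). AMH was not called without gradient B (4.35, adjusted p = 0.098) or without transcriptome A (0.0649), B (0.0576) or C (0.0863). In bulk libraries fewer cells of a type and less RNA per cell cannot be told apart, and the part of these cells in the differences above was not tested. The 10 oocyte markers, among them ZP2 to ZP4, GDF9 and BMP15, were present in every pool and transcriptome, with 51100 and 74500 CPM in sum in the pools and 43600, 37600 and 47800 CPM in the transcriptomes.

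Within the gradients, polysome pools were compared with monosome pools (F3 to F5) of the same gradients, in a fit that kept the gradient as a block. The polysome pools are the same as in the comparison with the transcriptome. Of 14873 genes tested, 18 were higher in polysomes (0.121%) and 12 were lower (0.0807%). These counts depended on the fit, with 881 and 951 genes when MII pools alone were fitted and 297 and 365 with DESeq2, and were not compared with those against the transcriptome. The median size of the log2 fold change was 0.852, against 2.41 for polysomes over transcriptome. PTTG1, securin, measured 3730 and 2870 CPM in the polysome pools and 260 and 256 CPM in the monosome pools in this fit (log2 fold change 3.66, SE 0.31, adjusted p = 0.00386). Its fractions rose from 138 CPM in F4 of gradient A to 4650 CPM in F10, still below the lowest transcriptome. CETN3, a centrin, measured 144 and 168 CPM against 13.7 and 8.49 CPM (3.85, SE 0.61, adjusted p = 0.0477), and SNRPD3, a core protein of snRNPs, 797 and 485 CPM against 37.1 and 54.1 CPM (3.8, SE 0.44, adjusted p = 0.0148). AURKC, an Aurora kinase of meiosis, measured 1540 and 590 CPM against 87.6 and 102 CPM, and CSTB, a protease inhibitor, 382 and 361 CPM against 25.7 and 35.8 CPM.

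The genes lower in polysomes than in monosomes included housekeeping proteins and an mRNA-packaging protein. GDI2, which recycles Rab GTPases, measured 591 and 532 CPM in the polysome pools and 4790 and 3840 CPM in the monosome pools (-2.93, SE 0.34, adjusted p = 0.0148), with its peak in F4 at 5830 and 4460 CPM. YBX1, the somatic relative of YBX2, measured 16.4 and 46.1 CPM against 209 and 203 CPM (-2.9, SE 0.46, adjusted p = 0.0477). PA2G4, which binds ribosomes, measured 65 and 114 CPM against 564 and 557 CPM (-2.7, SE 0.36, adjusted p = 0.0281). The cochaperone STIP1 and the chaperonin subunit CCT3 were lower as well, by 2.7 and 2.37 on the log2 scale. CDC20 was at 330 CPM (median) in F3 to F5 and 1110 CPM in F8 to F10, a log2 difference of 1.75 that did not pass (adjusted p = 0.102). CCNB1 differed by 0.34 (adjusted p = 0.89), MOS by 0.59 (adjusted p = 0.821) and PLK1 was high in both parts of the gradient. Without gradient A or without gradient B no gene passed this test, with 324 and 266 genes higher and 353 and 353 lower at an unadjusted p below 0.05.

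**Figure D4:**
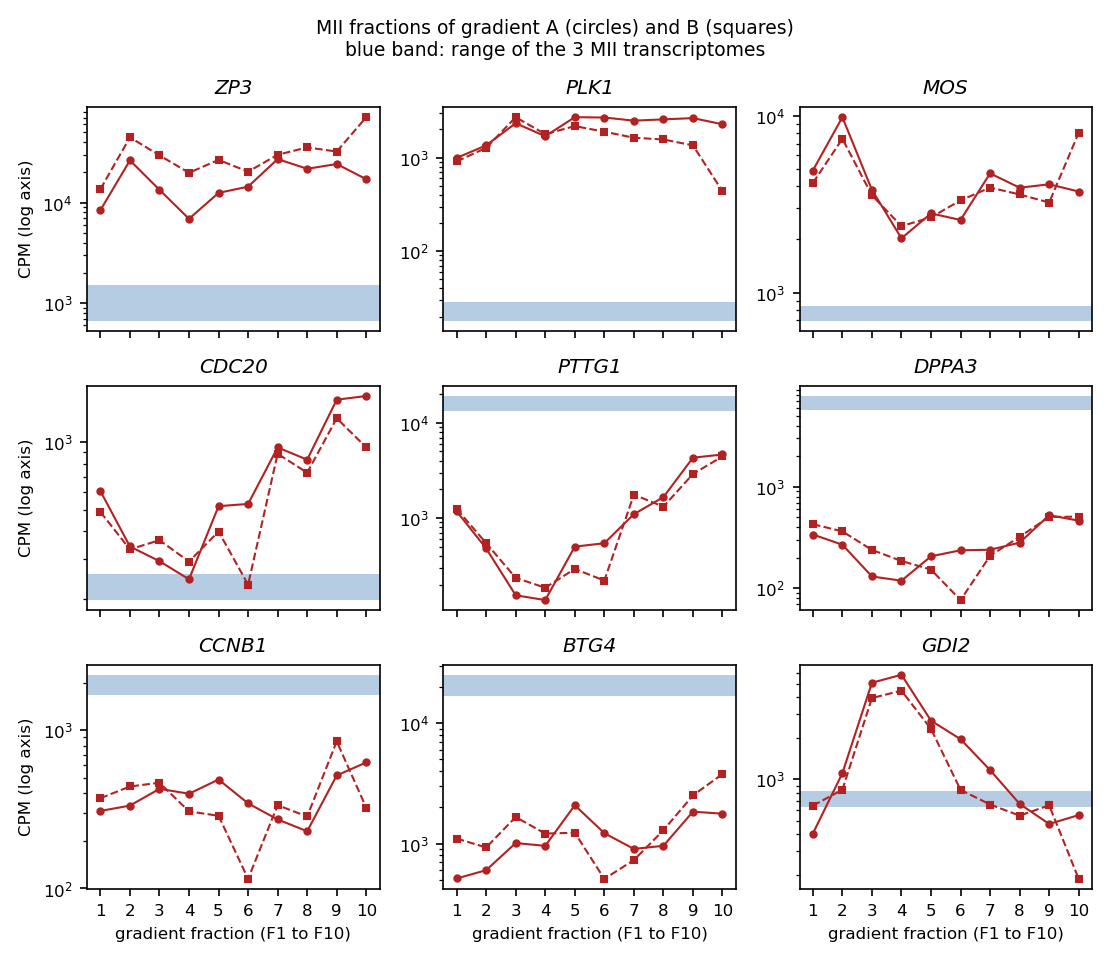
Level in CPM (log axis) of 9 genes along fractions F1 to F10 of MII gradients A (circles, solid line) and B (squares, dashed line), with the range of the 3 MII transcriptomes as a blue band. ZP3, PLK1 and MOS lie above the band and PTTG1, DPPA3, CCNB1 and BTG4 below it in every fraction, PTTG1 and CDC20 are higher in F9 and F10 than in F3 and F4, and GDI2 peaks in F4.

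The stages on either side of MII gave a measure of how far the pattern was particular to it. Germinal vesicle (GV) oocytes, not yet matured, and 2-cell embryos, after fertilization in vitro, each had 2 polysome pools and 3 transcriptomes of their own. Across genes, the log2 fold changes of polysomes over transcriptome in MII oocytes had a Spearman's rho of 0.766 with those in GV oocytes and 0.816 with those in 2-cell embryos. No library was shared between stages, and genes are not independent replicates. The difference of the fold changes, MII minus GV, was above 0 in 1044 genes (7.14%) and below 0 in 512 (3.5%) at an adjusted p below 0.05. MII minus 2-cell was above 0 in 158 genes (1.08%) and below 0 in 106 (0.725%). Leaving out transcriptome A, B or C of MII oocytes lowered the second pair of counts to 84, 93 or 58 genes above 0 and 54, 59 or 61 below, and leaving out gradient B gave 103 above 0. Both differences use the same MII libraries. The median size of the log2 fold change was 2.41 in MII oocytes, 1.57 in GV oocytes and 2.07 in 2-cell embryos.

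In ribosomal, respiratory and proteasome genes the polysome fold change was higher in MII than in GV oocytes more often than lower. Of 77 mitochondrial ribosomal proteins, 36 had a higher polysome fold change in MII than in GV oocytes and 1 a lower one, beside 7.14% and 3.5% of all genes, and the list median went from -0.54 in GV to 1.33 in MII oocytes. For the nuclear genes of oxidative phosphorylation the numbers were 28 and 2 of 76, with medians of -0.19 and 1.47. For cytosolic ribosomal proteins they were 18 and 0 of 80, with medians of -0.45 and 0.52, and for the proteasome 12 and 3 of 37, with medians of -1.01 and 0.06. With the letter A or B as a replicate block, this contrast called 126 genes above 0 and 12 below in all. In 2-cell embryos the medians of these 4 lists were 0.64, 1.07, 0.53 and -0.2. The anaphase promoting complex list had medians of -0.99, -1.57 and -1.79 in GV oocytes, MII oocytes and 2-cell embryos, and the deadenylation list -0.86, -1.99 and -1.49. Maternal effect genes had medians of 1.43, 1.34 and 1.34. ZP3 had a log2 fold change of 1.51 in GV and 4.92 in MII oocytes, a difference of 3.41 (adjusted p = 0.000395). PLK1 (difference 2.75, adjusted p = 0.00421) also gained, CCNB1 (-1.19, adjusted p = 0.0375) and BORA (-1.88, adjusted p = 0.012) lost, and MOS (-0.3, adjusted p = 0.927) and NLRP5 (1.8, adjusted p = 0.421) did not pass.

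**Figure D5:**
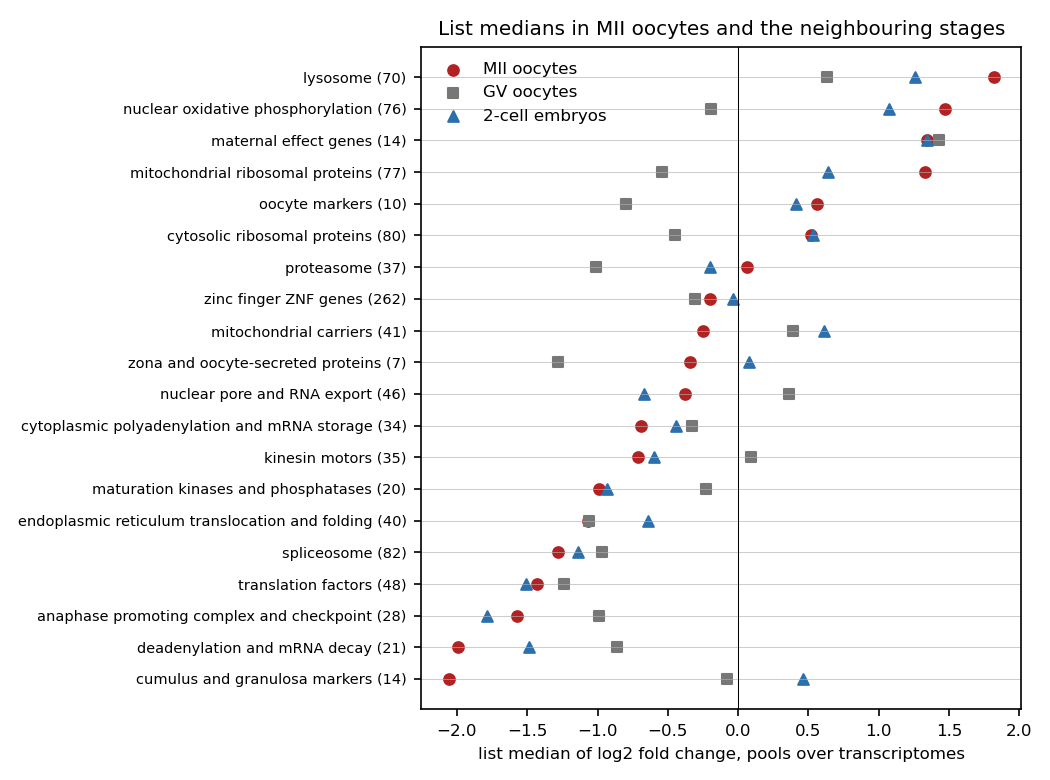
Median log2 fold change of polysome pools over the transcriptomes of the same stage for each of the 20 gene lists (number of genes in parentheses), in MII oocytes (red circles), GV oocytes (grey squares) and 2-cell embryos (blue triangles). The mitochondrial ribosomal list lies at 1.33 in MII oocytes, -0.54 in GV oocytes and 0.64 in 2-cell embryos, and the maternal effect list at 1.34, 1.43 and 1.34.

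Single genes with the largest differences between stages moved in the pools, in the transcriptome or in both. MTG2 had a log2 fold change of 9.38 in MII oocytes, 3.52 in GV oocytes and 4.42 in 2-cell embryos. Both differences passed the test (5.86, adjusted p = 0.000202, and 4.95, adjusted p = 0.00993), but neither did with the letter as a replicate block. LENG1 went from 14.9 and 13.3 CPM in GV pools and 97.9, 150 and 99.5 CPM in GV transcriptomes to 37.5 and 49.8 CPM in MII pools and 20.7, 12.1 and 9.4 CPM in MII transcriptomes, a difference of 4.67 (SE 0.61, adjusted p = 1.68e-05). IFITM3, an interferon-induced membrane protein, was at 46.2 and 133 CPM in MII pools and at 80, 193 and 84 CPM in MII transcriptomes, while GV transcriptomes held 0, 0 and 0.101 CPM and GV pools 1.26 and 1.3 CPM. Its difference was -5.51 (SE 1.04, adjusted p = 0.000947). ARAF, a kinase of the MAP kinase pathway, measured 80.3 and 153 CPM in MII pools and 114, 195 and 180 CPM in MII transcriptomes, but 74.2 and 80.9 CPM in 2-cell pools and 2.74, 2.4 and 4.66 CPM in 2-cell transcriptomes (-5.05, SE 0.55, adjusted p = 3.12e-05). DNAJC13, an endosomal cochaperone, went from 19.2 and 29.6 CPM in GV pools to 0.973 and 2.36 CPM in MII pools, while its transcriptome level went from 58.2, 69.8 and 56.9 CPM to 133, 134 and 145 CPM (-5.02, SE 0.78, adjusted p = 0.000116). The largest difference from GV oocytes, that of RRP1 (9.17, SE 1.84, adjusted p = 0.00165), rested on gradient B, where the MII pool held 745 CPM against 2.02 CPM in gradient A, and it was 1.64 without gradient B (adjusted p = 0.511).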

How the data were processed

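Polysome fractions and whole oocytes were profiled by the authors with the Smart-seq V4 and Nextera XT kits and quantified with Salmon (version not given in the sources used here). The labels name the build UMD3.1 and the study's methods name a later Ensembl build, and no coordinates were used. The deposited table holds expected counts for 16706 gene symbols in 138 libraries, of which 11.7% of the values were not whole. Transcripts from near-identical genes may have been divided among copies in that step.

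The counts of each library were rounded to whole numbers, and for each gradient those of its F8, F9 and F10 libraries were then added up. One model was fitted in edgeR 4.0.16 (R 4.3.3) with TMM scaling, filterByExpr and the quasi-likelihood F test, over 30 libraries (12 polysome pools and 18 transcriptomes of 6 stages) in 12 groups. Stage differences were interaction contrasts in that model. Polysome and monosome pools were compared over 24 pools with the gradient within stage as a block. Adjusted p-values are Benjamini-Hochberg values over all genes tested, with a threshold of 0.05, and SE is the size of the log2 fold change divided by the square root of F. Bounds against libraries at 0 use a floor of 3 counts per library and cover counting error only. Scripts were tested on simulated data. Alternatives were the likelihood ratio test, DESeq2 1.42.0, other scalings, filters, poolings and depths, and each MII library left out.

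Genes were named by several rules. The first took the 10 largest changes in each direction with an adjusted p below 0.05 and both pools beyond all 3 transcriptomes. A gene symbol and a mean of at least 10 CPM over the MII pools and transcriptomes together were also required. Other rules took the 5 highest in the pools, known oocyte genes and the 3 largest of each list and direction. Each further contrast gave its 5 largest in each direction, with a mean of at least 10 CPM over its own libraries. The members and lists were chosen with earlier results of these data known.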

Additional observations from a re-analysis of the deposited data

Results flagged for a closer look

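The polysome effect differed between MII and GV oocytes by an interaction test in 1044 genes above 0 and 512 below 0. By size, the genes named above 0 were RRP1 (9.17), MTG2 (5.86), ARL6IP4 (5.02), NOC2L (4.85) and LENG1 (4.67), as differences of log2 fold changes. Those named below 0 were IFITM3 (-5.51), DNAJC13 (-5.02), YES1 (-4.57), ZYG11A (-4.56) and MYO9A (-4.46). With the letter A or B as a replicate block, MTG2, RRP1, ARL6IP4, NOC2L, YES1, ZYG11A and MYO9A lost their call. ARL6IP4 and NOC2L lost it with F8 and F9 only, and NOC2L also with F10 of gradient B left out (2.67, adjusted p = 0.12). Values of RRP1, NOC2L and MYO9A lost their call without gradient B of MII oocytes, at 1.64 (adjusted p = 0.511), 2.76 (adjusted p = 0.18) and -3.56 (adjusted p = 0.0664).

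Between MII oocytes and 2-cell embryos the same test gave 158 genes above 0 and 106 below 0. Genes named above 0 were WDR35 (5.68), SAMD15 (5.15), MTG2 (4.95), RPUSD1 (4.64) and MEAK7 (4.23). RARRES2 (-7.5), UBR3 (-6.89), ARAF (-5.05), IFITM1 (-5.04) and IFITM3 (-4.86) were named below 0. Every gene named here, above or below 0, lost its call with the letter as a replicate block. With F8 and F9 only, MEAK7, UBR3, WDR35, SAMD15 and RARRES2 lost theirs. The transcriptomes of 2-cell embryos held 0.304, 0.32 and 0.376 CPM of IFITM1 and those of MII oocytes 26.8, 87.8 and 43.9 CPM. RPUSD1, a pseudouridine synthase domain protein, measured 58.7 and 54.9 CPM in MII pools and 53.9 and 61.9 CPM in 2-cell pools, with 0.114, 0.304 and 0 CPM in MII transcriptomes and 2.59, 4.08 and 4.96 CPM in 2-cell transcriptomes. UBR3, SAMD15 and RARRES2 lost their call without any 1 of the 2 MII pools or 3 MII transcriptomes, with differences of -8.71 to -6.13 (adjusted p = 0.0542 to 0.135), 5.01 to 5.23 (0.068 to 0.0872) and -8.16 to -7.07 (0.0695 to 0.126). WDR35 lost it without gradient B (4.39, adjusted p = 0.131) or transcriptome A, B or C (5.47, 5.69 and 5.8, adjusted p = 0.0702 to 0.0761). MEAK7 lost it without gradient A (3.93, adjusted p = 0.0607) or transcriptome A or C (3.93 and 4.18, adjusted p = 0.0681 and 0.0673).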

How the results depend on the processing

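For MII polysomes against transcriptome, leaving out 1 MII library gave 3799 to 4054 genes higher and 3054 to 3665 lower, and over 8-fold 2645 to 2904 and 1748 to 1911. Direction was compared only where the main fit or the alternative made a call, and values called in neither were counted as kept. Of the values of named genes under all alternatives, 2931 were kept in this sense, 167 lost the call, 11 gained it and 4 changed direction. Those 4 were RRP1 at -1.7 without gradient B (up to 6.8 without gradient A), and NOC2L at -0.06 with F8 and F9 only, -0.25 with F10 of gradient B left out and -0.19 without gradient B (up to 2.7 without gradient A). The cause was not tested. The labels do not say whether the letters A and B pair pools with transcriptomes. Deviations of MII pools and transcriptomes with the same letter correlated at -0.032 and -0.00215. With 2 pools the deviations of A and B mirror each other, so these values cannot show whether the letters pair. With the letter as a replicate block, 2809 genes were higher and 2301 lower, 2033 and 1179 of them over 8-fold. The block gave 126 and 12 genes for MII minus GV, and 0 and 0 for MII minus 2-cell, with 371 and 366 at an unadjusted p below 0.05 in edgeR. MII minus GV had 2314 and 1457 genes with only these stages in the fit, and 825 below 0 with the likelihood ratio test and 991 with DESeq2. MII minus 2-cell had 362 and 328 with the likelihood ratio test, 446 and 373 with DESeq2, 827 and 341 with only these stages, 81 and 56 with F8 and F9 only, and 57 below 0 after thinning. Leaving out 1 MII library gave 58 to 138 genes above 0 (58 to 103 without gradient B or 1 transcriptome) and 54 to 121 below (54 to 61 without 1 transcriptome). MII polysomes against monosomes had 179 and 236 genes with the likelihood ratio test, 297 and 365 with DESeq2, 881 and 951 with MII alone, 3 and 3 with F8 and F9 only, 39 and 26 with no replicate block, and 7 lower with DESeq2's size factors. Leaving out either gradient gave 0 and 0.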
